A study of Mus musculus with 6 samples.

Results

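Amino acid transporter genes were examined in EGFP-positive cells sorted from the renal medulla of mice after kidney ischemia-reperfusion injury (IRI) or sham surgery. The genes were all rows of the deposited RPKM table whose symbol starts with Slc1a, Slc3a, Slc7a, Slc36a, Slc38a or Slc43a followed by a digit, which gave 44 of 37583 rows. RPKM is a read count scaled by gene length and by library size, so it allows levels of different genes to be compared. The 44 rows hold 43 symbols, because Slc38a9 stands in the table under 2 gene identifiers. The name pattern also takes in Slc7a6os, which is named for its position beside Slc7a6 and is not known as a transporter.

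The IRI group had 3 samples, taken 2 h after ischemia-reperfusion surgery, and the sham group had 3 samples, taken 2 h after sham surgery. All 6 samples, sham included, came from B1 VATPase EGFP transgenic mice aged 12 weeks, and each pooled 4 kidneys from 2 mice. The transgene marks intercalated cells, the acid-base transporting cells of the collecting duct, and cells were sorted for EGFP in 2 rounds. Nothing in the labels ties a group's samples to separate experiments, and p-values here reflect how far such pools differ, which may be technical. A label entry names the epididymis as the tissue and another names CX3CR1 as the gene that controls EGFP, whereas the series' design text gives the renal medulla. Of 7 epididymis markers 3 had no read in any sample, and the list summed to 11.3 to 27.6 RPKM in IRI samples and 24.6 to 41.4 RPKM in sham samples, most of it Defb2. Cx3cr1 had 1 read over the 3 IRI samples and 1 read over the 3 sham samples.

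Reads assigned to genes numbered 22478011 to 24245330 in IRI samples and 17421669 to 23061108 in sham samples. Of the 10 intercalated cell markers, all 10 passed the filter on low counts, and their summed level was 11149 to 13448 RPKM in IRI samples and 11493 to 14170 RPKM in sham samples. Rhcg (log2 fold change, IRI over sham, -1.01) and Atp6v1b1 (-0.37) of these were called lower in IRI, or 20.0% of the list. Principal cell markers were also abundant, with a summed level of 4009 to 8090 RPKM in IRI samples and 8571 to 9509 RPKM in sham samples, and 3 of 7 tested, Aqp3, Hsd11b2 and Kcnj1, were called lower in IRI, or 42.9%, against 21.2% of all genes called lower. Thick ascending limb markers summed to 284 to 467 RPKM in IRI samples and 322 to 523 RPKM in sham samples, most of it Umod. The 14 proximal tubule markers summed to 2.76 to 7.90 RPKM in IRI samples and 2.46 to 7.42 RPKM in sham samples. Macrophage and dendritic cell markers summed to 123 to 184 RPKM in IRI samples and 37.7 to 164 RPKM in sham samples. Most of this was Cd74. Of 9 tested, 4 (Cd68, Cd14, Lyz2 and Ptprc) were called higher in IRI, or 44.4%, against 24.2% of all genes called higher. The other 5 tested, Cd74, Csf1r, C1qa, C1qb and C1qc, had no call. The part of these other cell types in the results below was not tested. In sorted but pooled cells, fewer cells of a type and less RNA per cell cannot be told apart.

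Amino acid transporters carry amino acids across the plasma membrane and the lysosomal membrane. Heteromeric transporters pair a heavy chain, Slc3a2 or Slc3a1, which takes the complex to the surface, with a light chain of the Slc7 family, which does the transport. Sodium-coupled Slc38 carriers such as Slc38a2 accumulate small neutral amino acids. Exchangers such as the Slc7a5 complex use these to import leucine and other large neutral amino acids. Several of these genes belong to the amino acid response, in which the transcription factor ATF4 acts on genes whose regulatory regions carry C/EBP-ATF response elements, and cystine import by Slc7a11 feeds glutathione synthesis.

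Amino acid transporter genes changed in both directions 2 h after IRI. Of the 44 rows, 25 passed the filter and were tested, and 11 of these (44.0%) were called at an adjusted p under 0.05 (edgeR's quasi-likelihood test, Benjamini-Hochberg over all genes tested). Among all 13881 genes tested, 45.5% were called, so the share of transporter genes called was near the background. In IRI 7 genes were called higher, Slc1a4, Slc38a2, Slc7a5, Slc3a2, Slc38a6, Slc38a1 and Slc7a1, or 28.0% of those tested, against 24.2% of all genes. Slc43a2, Slc7a4, Slc38a9 and Slc7a8 were called lower, or 16.0% of those tested, against 21.2% of all genes. The median log2 fold change, always given as IRI over sham, was 0.13 for the 25 genes and 0.00038 for all genes, and the median absolute log2 fold change was 0.65 and 0.48. RPKM values of the IRI and sham samples did not overlap for 11 of the 25 genes, or 44.0%, against 56.8% of all genes.

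The balance of higher and lower calls over all genes depended on the scaling. With TMM scaling 53.3% of all called genes were higher in IRI, against 42.0% under upper-quartile scaling and 35.6% by library size alone, and the median of all genes moved by -0.12 and -0.20 log2. Under both of those scalings 7 transporter genes were called higher and 5 lower, the added gene being Slc38a10.

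**Figure D1:**
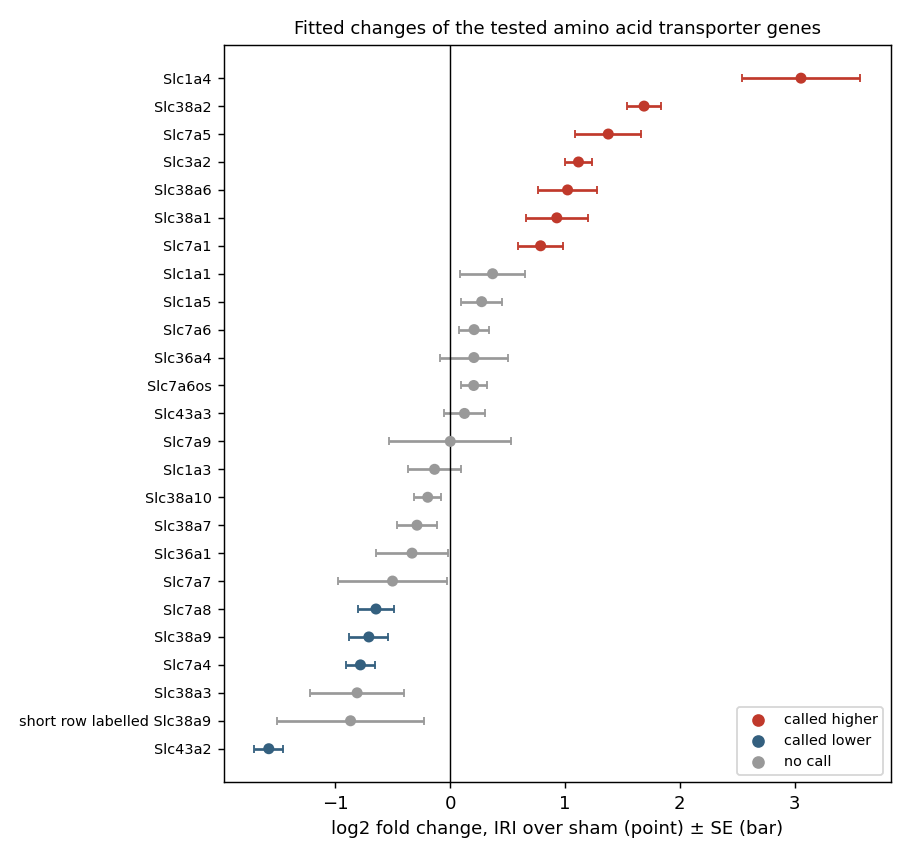
Log2 fold change (IRI over sham, edgeR) for each of the 25 tested transporter genes, one per row, with points for the estimate, bars for the standard error and colour for the call. Slc1a4 lies farthest to the right at 3.06 and Slc43a2 farthest to the left at -1.58; genes with no call lie between -0.87 and 0.37.

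Slc3a2, the heavy chain also known as CD98, had the highest level of the 44 rows in both groups. It stood at 135, 139 and 163 RPKM in IRI replicates 1, 2 and 3, against 74.5, 65.6 and 66.8 RPKM in sham replicates 1, 2 and 3. Every IRI sample was above every sham sample, with means of 146 ± 15.4 RPKM in IRI and 68.9 ± 4.82 RPKM in sham (SD, n = 3 each). The log2 fold change was 1.12 ± 0.11 (SE; adjusted p = 0.000114), or 2.17-fold higher in IRI. The other heavy chain, Slc3a1, pairs with Slc7a9 in the proximal tubule to take up cystine and basic amino acids; it had 9 reads over the IRI samples and 19 over the sham samples and was not tested.

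The light chains moved in different directions. Slc7a5, or LAT1, exchanges large neutral amino acids such as leucine; it had 1.58, 2.42 and 3.54 RPKM in IRI replicates 1 to 3, against 0.978, 1.12 and 0.881 RPKM in sham replicates 1 to 3. The groups did not overlap, though the IRI samples differed among themselves more than the sham samples did, and the log2 fold change was 1.38 ± 0.29 (SE; adjusted p = 0.00475). Slc7a8, or LAT2, a related exchanger of neutral amino acids in kidney epithelia, went the other way, with 8.15, 11.9 and 11.6 RPKM in IRI replicates, against 16.9, 15.3 and 18.6 RPKM in sham replicates. All 3 IRI samples were below the sham samples, and the log2 fold change was -0.65 ± 0.16 (SE; adjusted p = 0.0101). As a description of the same values, the ratio of Slc7a8 to Slc7a5 RPKM was 5.16, 4.90 and 3.28 in IRI samples and 17.3, 13.7 and 21.1 in sham samples.

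Slc7a6, a light chain that exchanges basic for neutral amino acids, was at 5.54, 6.68 and 5.68 RPKM in IRI replicates and at 5.35, 5.53 and 5.01 RPKM in sham replicates. Its groups did not overlap but it had no call (log2 fold change 0.21 ± 0.13 SE; adjusted p = 0.215). Slc7a7 and Slc7a9, light chains of the proximal tubule and gut, stayed under 1 RPKM in both group means and had no call, with adjusted p of 0.422 and 0.999. Slc7a7 shares exonic sequence with Oxa1l on the other strand, and the reads were counted without strand. Summed over the 6 light chains known to pair with Slc3a2, the level was 15.8, 21.2 and 21.5 RPKM in IRI samples and 24.0, 22.3 and 25.3 RPKM in sham samples. Slc3a2 RPKM was thus 8.56, 6.52 and 7.60 times that sum in IRI samples and 3.11, 2.93 and 2.63 times it in sham samples, a ratio of transcripts chosen after its values were seen and not tested.

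Slc7a11, the light chain of the cystine-glutamate exchanger xCT, was close to absent. It had 2, 14 and 19 reads in IRI replicates 1 to 3, against 0, 8 and 1 reads in sham replicates 1 to 3, which is at most 0.0801 RPKM in any sample. It fell below the filter and was not tested. The depth-scaled ratio of summed reads, IRI over sham, was 4.05, with an exact 95% interval of 1.91 to 9.59 that covers counting error only. IRI replicate 1 lay within the range of the sham samples, and without sham replicate 2, which held 8 of the 9 sham reads, the ratio was 23.6 with an interval of 3.97 to 959. In a fit with no filter its adjusted p was 0.209. It passed the filter in 4 of the fits that left out 1 sample and was called higher in 1 of these, without sham replicate 2 (adjusted p = 0.0425), with adjusted p of 0.0710 without IRI replicate 1, 0.328 without sham replicate 1 and 0.334 without sham replicate 3.

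Sodium-coupled system A carriers import alanine, serine, glutamine and other small neutral amino acids. Slc38a2, or SNAT2, the system A carrier known to be induced by amino acid shortage and by hyperosmotic stress, had 57.8, 46.2 and 68.8 RPKM in IRI replicates 1 to 3, against 20.1, 17.6 and 17.3 RPKM in sham replicates 1 to 3. The lowest IRI sample was more than any sham sample, and the means were 57.6 ± 11.3 RPKM in IRI and 18.3 ± 1.58 RPKM in sham (SD, n = 3 each). Its log2 fold change was 1.69 ± 0.15 (SE; adjusted p = 5.97e-05), or 3.22-fold higher in IRI.

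Slc38a1, or SNAT1, had 2.11, 3.75 and 3.91 RPKM in IRI replicates and 2.21, 1.66 and 1.39 RPKM in sham replicates. IRI replicate 1 was below sham replicate 1, so the groups overlapped. It was called higher at a log2 fold change of 0.93 ± 0.27 (SE; adjusted p = 0.0232), and the call was lost when IRI replicate 2 or 3 or sham replicate 2 or 3 was left out, with adjusted p of 0.0768, 0.0699, 0.0766 and 0.0800. Slc38a4, the system A carrier of liver, had 11 reads in IRI samples and 16 in sham samples and was not tested.

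Of the Slc1 family, the neutral amino acid exchanger Slc1a4, or ASCT1, showed the largest fitted change of the 25 tested genes, from a low level. It had 0.649, 0.550 and 0.663 RPKM in IRI replicates 1 to 3, against 0.0448, 0.152 and 0.0265 RPKM in sham replicates 1 to 3. These values rest on 90, 76 and 87 reads in IRI samples and on 7, 22 and 3 reads in sham samples. All IRI samples were above all sham samples, with a log2 fold change of 3.06 ± 0.52 (SE; adjusted p = 0.00156), or 8.31-fold. Sham replicate 2 was the highest sham sample, and without it the log2 fold change was 4.08 (adjusted p = 0.000305).

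Slc1a5, or ASCT2, a glutamine exchanger and the most abundant Slc1 gene here, was at 30.9, 28.7 and 18.6 RPKM in IRI replicates 1 to 3, against 20.3, 21.8 and 24.2 RPKM in sham replicates 1 to 3. IRI replicates 1 and 2 were above all sham samples and IRI replicate 3 was below them, and the gene had no call (log2 fold change 0.27 ± 0.18 SE; adjusted p = 0.244). Without IRI replicate 3 it was called higher, at 0.47 (adjusted p = 0.0124). The glutamate and aspartate transporters Slc1a1 and Slc1a3 were under 1 RPKM in both groups and had no call, and Slc1a2, Slc1a6 and Slc1a7 had at most 2 reads in any sample.

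Among cationic amino acid transporters, Slc7a1, or CAT1, which imports arginine and lysine, had 4.07, 3.67 and 5.75 RPKM in IRI replicates, against 2.36, 3.18 and 2.48 RPKM in sham replicates. The groups did not overlap and the log2 fold change was 0.79 ± 0.19 (SE; adjusted p = 0.00993). Slc7a4, a relative of CAT1 for which transport activity is not established, had 3.24, 3.10 and 2.81 RPKM in IRI replicates, against 5.03, 5.96 and 5.14 RPKM in sham replicates. Its IRI samples were all below its sham samples, at a log2 fold change of -0.78 ± 0.13 (SE; adjusted p = 0.00128). Slc7a2 and Slc7a3, the CAT2 and CAT3 genes, had at most 12 reads in any sample and were not tested.

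Slc43a2, or LAT4, which lets large neutral amino acids leave the cell down their gradient, showed the largest fall. It had 9.96, 12.7 and 12.7 RPKM in IRI replicates 1 to 3, against 33.9, 38.8 and 35.7 RPKM in sham replicates 1 to 3. Every IRI sample was far below every sham sample. The log2 fold change was -1.58 ± 0.12 (SE; adjusted p = 3.3e-05), or 2.99-fold lower in IRI. Slc43a2 exons overlap Gm45606 on the other strand in the annotation used here. Reads of the shared stretch carry no strand and may have been set aside as ambiguous or counted for Slc43a2, which was not tested. Slc38a10 and Slc1a1 also overlap genes on the other strand, Gm11769 and 4430402I18Rik. Slc43a3, which in human cells carries purine nucleobases rather than amino acids, averaged 4.83 ± 1.24 RPKM in IRI and 4.55 ± 0.25 RPKM in sham (SD, n = 3 each) and had no call. Slc43a1 had 10 reads in IRI samples and 8 in sham samples.

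**Figure D2:**
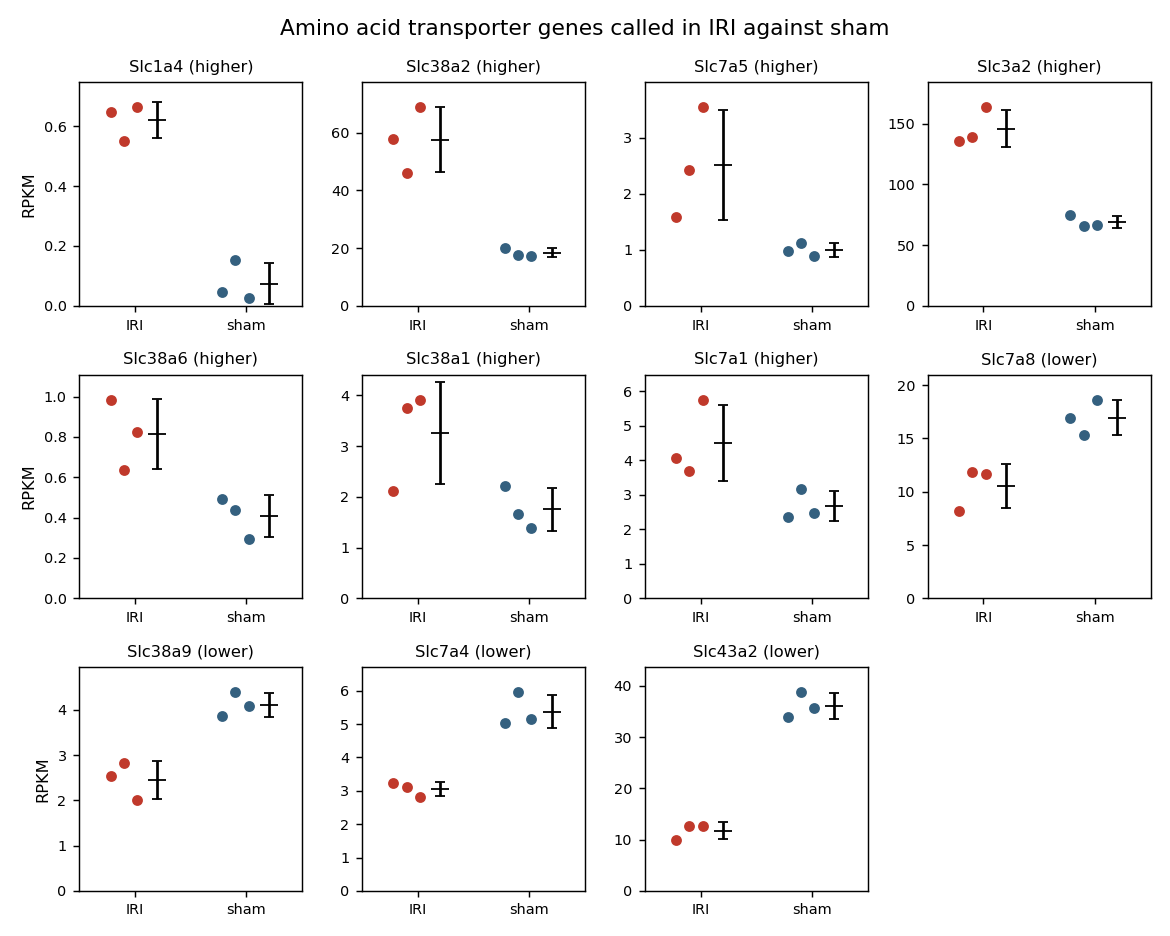
RPKM by sample for the 11 transporter genes called in IRI against sham, IRI left and sham right in each panel, with points for samples and a bar for the mean ± SD beside them (n = 3 each); each panel has its own axis from 0. The groups overlap for Slc38a1, where IRI replicate 1 lies at 2.11 RPKM and sham replicate 1 at 2.21 RPKM, and are apart for the other 10 genes.

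Among the lysosomal and other Slc38 members, 1 of 5 tested rows was called higher and 1 lower, against 24.2% and 21.2% of all genes. Slc38a9, a lysosomal transporter that reports arginine to mTORC1, had 2.54, 2.82 and 2.00 RPKM in IRI replicates, against 3.86, 4.39 and 4.08 RPKM in sham replicates under its main identifier, ENSMUSG00000047789. The groups were apart, at a log2 fold change of -0.71 ± 0.17 (SE; adjusted p = 0.00906). The second Slc38a9 row, ENSMUSG00000069056, had 22 reads in IRI samples and 41 in sham samples and no call. Slc38a6, a member whose substrate is not firmly established, had 0.985, 0.635 and 0.822 RPKM in IRI replicates, against 0.492, 0.439 and 0.294 RPKM in sham replicates, and was called higher at 1.02 ± 0.26 log2 (SE; adjusted p = 0.0113). Without sham replicate 3 its call was lost (0.81; adjusted p = 0.0516).

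Slc38a3, or SNAT3, the system N glutamine carrier known for its part in kidney ammonia production, had 0.464, 0.562 and 1.34 RPKM in IRI replicates 1 to 3, against 1.83, 1.13 and 1.29 RPKM in sham replicates 1 to 3. IRI replicates 1 and 2 were below all sham samples and IRI replicate 3 was among them, and the gene had no call (log2 fold change -0.81 ± 0.41 SE; adjusted p = 0.140). Without IRI replicate 3 it was called lower, at -1.43 (adjusted p = 0.00651). Slc38a10 averaged 11.8 ± 1.35 RPKM in IRI and 13.9 ± 1.10 RPKM in sham (SD, n = 3 each) and had no call with TMM scaling (adjusted p = 0.199), though upper-quartile scaling (-0.32; adjusted p = 0.0445) and library size alone (-0.40; adjusted p = 0.0107) each called it lower. Slc38a7, a lysosomal glutamine transporter, averaged 2.00 ± 0.242 RPKM in IRI and 2.50 ± 0.387 RPKM in sham (SD, n = 3 each) and had no call (adjusted p = 0.215). Slc36a1, a proton-coupled exporter of amino acids from lysosomes, and its relative Slc36a4 were near 1 RPKM or lower. Neither had a call (adjusted p = 0.418 and 0.598).

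Of the 19 rows below the filter, 14 had reads, with at most 19 in any sample. The other 5, Slc36a3, Slc38a8, Slc7a10, Slc7a12 and Slc7a15, had no read in any of the 6 libraries, which allows a level of up to 0.00706 to 0.0113 RPKM by a limit of 3 counts over the 6 libraries, for counting error only. Slc7a6os averaged 18.9 ± 1.08 RPKM in IRI and 16.8 ± 0.895 RPKM in sham (SD, n = 3 each) and had no call (adjusted p = 0.169).

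The summed level of the 44 rows was 303.4, 306.3 and 341.5 RPKM in IRI replicates 1 to 3, against 228.8, 226.1 and 225.4 RPKM in sham replicates 1 to 3. Every IRI sum was above every sham sum, by 90.3 RPKM in the mean, and the exact two-sided permutation test gave p = 0.1, the smallest it allows with 3 samples against 3. Without Slc3a2 the sums were 168, 168 and 178 RPKM in IRI samples and 154, 161 and 159 RPKM in sham samples. That smaller difference is a net of opposite moves. Mean Slc38a2 was 57.6 RPKM in IRI and 18.3 RPKM in sham, and mean Slc43a2 was 11.8 RPKM in IRI and 36.1 RPKM in sham. Slc3a2 made up 44.6%, 45.2% and 47.9% of the sum in IRI samples, against 32.5%, 29.0% and 29.6% in sham samples. For Slc38a2 the shares were 19.0%, 15.1% and 20.1% in IRI samples and 8.80%, 7.76% and 7.66% in sham samples, and for Slc43a2 they were 3.28%, 4.14% and 3.71% in IRI samples and 14.8%, 17.2% and 15.8% in sham samples. Slc43a2 was thus the second most abundant of the 44 rows in sham cells and stood sixth in IRI cells by mean RPKM.

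**Figure D3:**
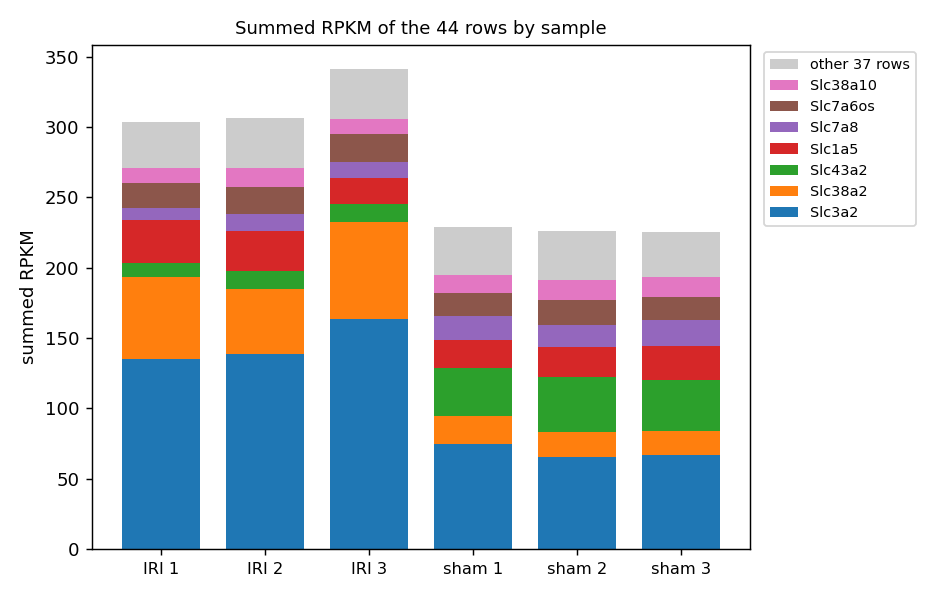
Summed RPKM of the 44 rows in each sample, IRI samples left and sham samples right, stacked by gene for the 7 most abundant genes with the rest in grey. The bars reach 303.4 to 341.5 RPKM in IRI and 225.4 to 228.8 RPKM in sham, and the Slc3a2 and Slc38a2 layers are taller and the Slc43a2 layer is thinner in every IRI sample.

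Promoter sequence was available for 32 of the 43 symbols as 43 windows of 250 bases before to 50 bases after a gene start (RefSeq, GRCm38.p6). The windows were searched on both strands for TGATGNAA, the core of the C/EBP-ATF response element, TGACNNNGC, the core of the antioxidant response element, and CACGTG, the E-box; 1 pair of matches, in Slc36a1, overlapped. TGATGNAA was in 4 of the 43 windows (9.30%) against 3.97% of all 32851 promoter windows. TGACNNNGC was in 6 (14.0%) against 12.4%, and CACGTG in 7 (16.3%) against 7.15%. These windows belong to 3, 5 and 7 genes for the 3 motifs in turn, because windows of 1 gene can overlap and share a match. Among the 26 windows of tested genes the shares were 11.5%, 19.2% and 7.69%, and no window of a called gene held CACGTG. Of the 11 called genes 8 had a window, with none listed for Slc7a5, Slc38a1 and Slc7a4. The 4 windows below are shown because they belong to the 3 named markers of amino acid import and to the gene with the largest fitted change. They are written on the gene's strand from 5′ to 3′, and capitals mark the motif matches. The Slc7a11 window (chr3:50443564-50443863, minus strand) holds TGATGNAA matches 66 and 47 bases before the start, the second on the opposite strand. Slc1a4 (chr11:20332664-20332963, minus strand) has 1 such match, 4 bases before the start, on the opposite strand. The remaining TGATGNAA matches were in windows of Slc7a7, which are not shown. Slc7a7 had no call (log2 fold change -0.50, adjusted p = 0.422 by edgeR). Slc38a2 (chr15:96699679-96699978, minus strand) has a TGACNNNGC match 27 bases before the start. In Slc3a2 (chr19:8713848-8714147, minus strand) none of the 3 motifs was in this window. A match is a run of letters and not a shown binding site.
Slc7a11: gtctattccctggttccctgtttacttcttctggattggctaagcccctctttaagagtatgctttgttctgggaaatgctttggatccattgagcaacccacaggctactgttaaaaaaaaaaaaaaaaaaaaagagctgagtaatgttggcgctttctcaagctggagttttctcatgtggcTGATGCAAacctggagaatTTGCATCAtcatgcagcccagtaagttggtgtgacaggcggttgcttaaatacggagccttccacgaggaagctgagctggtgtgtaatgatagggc
Slc1a4: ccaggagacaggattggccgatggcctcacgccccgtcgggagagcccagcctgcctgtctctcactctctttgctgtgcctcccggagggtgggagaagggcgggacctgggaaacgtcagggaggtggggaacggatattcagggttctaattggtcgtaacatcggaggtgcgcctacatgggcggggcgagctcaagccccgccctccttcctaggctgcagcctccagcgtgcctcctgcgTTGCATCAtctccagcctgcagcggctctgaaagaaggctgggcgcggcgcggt
Slc38a2: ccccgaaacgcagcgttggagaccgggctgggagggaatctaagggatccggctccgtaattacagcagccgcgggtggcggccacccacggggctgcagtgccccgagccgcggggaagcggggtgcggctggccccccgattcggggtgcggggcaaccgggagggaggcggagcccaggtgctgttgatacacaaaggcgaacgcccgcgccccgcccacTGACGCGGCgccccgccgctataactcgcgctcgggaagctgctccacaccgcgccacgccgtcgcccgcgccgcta
Slc3a2: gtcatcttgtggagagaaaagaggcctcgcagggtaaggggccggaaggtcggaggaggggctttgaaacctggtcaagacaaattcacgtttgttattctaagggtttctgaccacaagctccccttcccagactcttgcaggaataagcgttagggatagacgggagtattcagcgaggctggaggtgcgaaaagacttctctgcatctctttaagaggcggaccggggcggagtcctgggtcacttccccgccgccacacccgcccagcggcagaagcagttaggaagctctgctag

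Genes of the amino acid response outside the transporter families were mostly higher in IRI. Of 27 tested, 16 were called higher and 5 lower (77.8% called, against 45.5% of all genes), with a median log2 fold change of 1.07. Atf4 itself had 186, 198 and 258 RPKM in IRI replicates, against 59.9, 78.0 and 70.5 RPKM in sham replicates (log2 fold change 1.66 ± 0.16 SE; adjusted p = 7.91e-05). Asns, which makes asparagine, had 26.2, 34.0 and 38.0 RPKM in IRI replicates, against 8.36, 10.5 and 7.19 RPKM in sham replicates (1.95 ± 0.18 SE; adjusted p = 9.36e-05). All IRI samples of both genes were above all their sham samples. Eif4ebp1, a repressor of cap-dependent translation, averaged 514 ± 43.6 RPKM in IRI and 89.5 ± 13.2 RPKM in sham, and Cebpb, a bZIP transcription factor, averaged 179 ± 8.65 RPKM in IRI and 19.4 ± 2.10 RPKM in sham (SD, n = 3 each). Atf3, Atf5, Ddit3, Trib3, Chac1, Psat1 and Mthfd2 were also called higher. The 5 called lower were Psph and Shmt2 of serine and glycine synthesis, Gpt2 of alanine synthesis, Cth of cysteine synthesis and Eif2ak1, a kinase upstream of ATF4. Ppp1r15a, which reverses the block on translation initiation, averaged 111 ± 42.9 RPKM in IRI and 66.8 ± 13.4 RPKM in sham (SD, n = 3 each) and had no call (adjusted p = 0.0769); it was called with DESeq2 (adjusted p = 0.00807), with edgeR's exact test and without IRI replicate 1 (1.04; adjusted p = 0.00653). Sesn2, a leucine sensor that restrains mTORC1, averaged 4.63 ± 1.30 RPKM in IRI and 4.32 ± 1.05 RPKM in sham (SD, n = 3 each) and had no call (adjusted p = 0.678). Many of these genes also respond to other stresses of the cell.

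**Figure D4:**
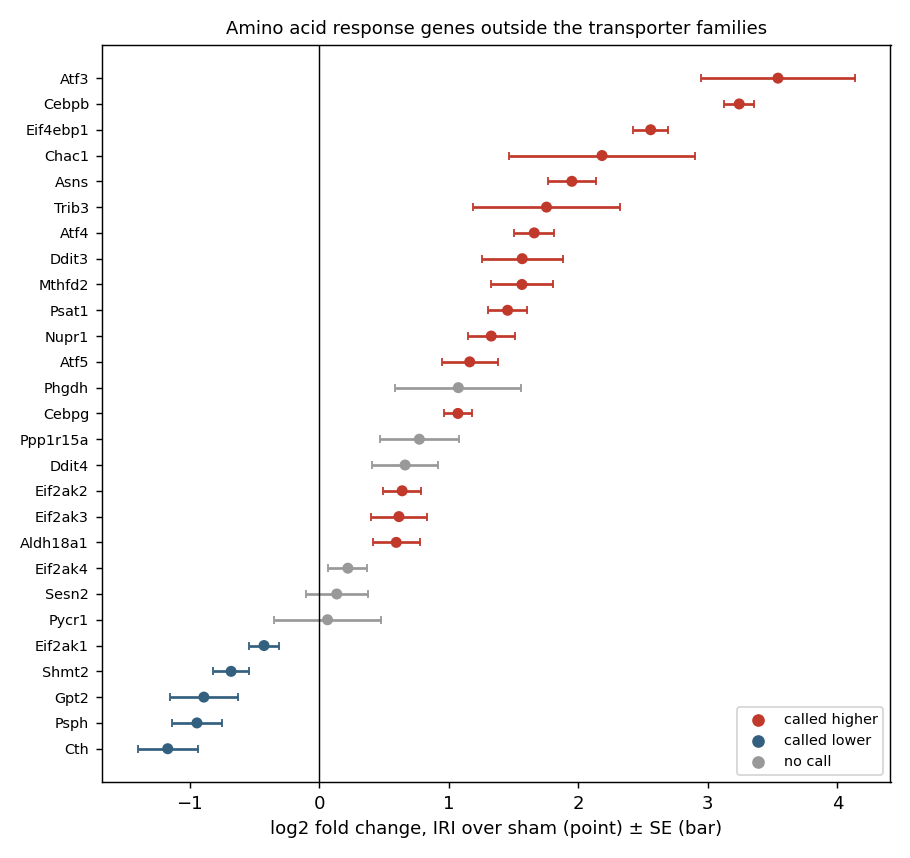
Log2 fold change (IRI over sham, edgeR) for each of the 27 tested amino acid response genes outside the transporter families, with points for the estimate, bars for the standard error and colour for the call. Of these, 16 genes were called higher and 5 lower.

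Genes of amino acid sensing by mTORC1, the kinase complex that couples amino acid supply to growth, changed in both directions. Of 29 tested, 7 were called higher and 7 lower (48.3%, against 45.5% of all genes). Nprl2, a subunit of the GATOR1 complex that holds mTORC1 off, had 24.4, 23.0 and 20.6 RPKM in IRI replicates, against 48.8, 55.6 and 55.4 RPKM in sham replicates (log2 fold change -1.20 ± 0.11 SE; adjusted p = 6.34e-05). Rragb, a Rag GTPase that brings mTORC1 to the lysosome, averaged 1.95 ± 0.307 RPKM in IRI and 5.01 ± 0.265 RPKM in sham, and Flcn, which acts on the Rag GTPases, averaged 3.26 ± 0.531 RPKM in IRI and 8.52 ± 2.47 RPKM in sham (SD, n = 3 each); both were called lower. Seh1l, of the GATOR2 complex, was called higher at 31.4 ± 1.31 RPKM in IRI and 21.1 ± 0.559 RPKM in sham (SD, n = 3 each). Rragd, another Rag GTPase, averaged 29.9 ± 2.46 RPKM in IRI and 30.6 ± 3.09 RPKM in sham, and Lamtor2, of the Ragulator scaffold on the lysosome, averaged 128 ± 6.34 RPKM in IRI and 158 ± 15.3 RPKM in sham (SD, n = 3 each). Neither had a call (adjusted p = 0.976 and 0.0739), though Lamtor2 was called lower under upper-quartile scaling, by library size alone and without sham replicate 1.

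Genes of glutathione synthesis, which cystine import feeds, and of the wider NRF2 response included 7 called higher and 0 lower of 11 tested. That was 63.6% called higher, against 24.2% of all genes called higher. Srxn1, which repairs oxidised peroxiredoxins, had 148, 187 and 225 RPKM in IRI replicates, against 40.8, 42.1 and 40.9 RPKM in sham replicates (log2 fold change 2.21 ± 0.16 SE; adjusted p = 2.02e-05). Txnrd1, thioredoxin reductase, had 77.0, 91.4 and 79.9 RPKM in IRI replicates, against 28.9, 25.8 and 28.5 RPKM in sham replicates (1.61 ± 0.11 SE; adjusted p = 1.8e-05). Gsr, which regenerates glutathione, averaged 110 ± 18.6 RPKM in IRI and 55.0 ± 1.18 RPKM in sham, and Gss, of glutathione synthesis, averaged 14.4 ± 2.02 RPKM in IRI and 7.52 ± 0.568 RPKM in sham (SD, n = 3 each); both were called higher. Gclc, the catalytic subunit of the rate-limiting enzyme of glutathione synthesis, had no call (adjusted p = 0.388 by edgeR). It averaged 150 ± 37.4 RPKM in IRI and 130 ± 32.5 RPKM in sham (SD, n = 3 each). Gclm, the other subunit, was called higher with TMM scaling (log2 fold change 0.38 ± 0.09 SE, adjusted p = 0.0111 by edgeR). Keap1, which holds NRF2 back, averaged 6.09 ± 0.685 RPKM in IRI and 7.63 ± 0.203 RPKM in sham (SD, n = 3 each) and had no call (adjusted p = 0.0760), though it was called lower under upper-quartile scaling and by library size alone.

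Partners and regulators of the transporters were tested as 9 genes, of which 4 were called higher and 1 lower (55.6%, against 45.5% of all genes). Cd44, a surface protein that binds the Slc7a11 complex, averaged 0.463 ± 0.108 RPKM in IRI and 0.0561 ± 0.0377 RPKM in sham (log2 fold change 3.10 ± 0.50 SE; adjusted p = 0.00128). Sgk1, a kinase that raises the activity of several amino acid transporters, averaged 87.6 ± 7.97 RPKM in IRI and 27.0 ± 11.0 RPKM in sham (1.74 ± 0.27 SE; adjusted p = 0.00174). Arl6ip5, which restrains the glutamate transporter encoded by Slc1a1, was also called higher, at 62.7 ± 15.4 RPKM in IRI and 33.4 ± 2.28 RPKM in sham (0.95 ± 0.18 SE; adjusted p = 0.00357). Nedd4, a ubiquitin ligase, was called lower at -0.42 log2. Its relative Nedd4l averaged 27.3 ± 0.846 RPKM in IRI and 24.5 ± 0.743 RPKM in sham (SD, n = 3 each) and had no call (adjusted p = 0.109).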

How the data were processed

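RNA of EGFP-positive cells was sequenced in 3 IRI and 3 sham samples, grouped by the sample titles. Per the labels' protocols, libraries were made with the Clontech SMARTER Kit v4, which does not mark strand. The submitters' processing notes name STAR, HTSeq, edgeR and build mm9, without versions or roles. The deposited counts are whole reads per gene, not normalized, and were counted without strand; 5 summary entries per file were set aside, and 49.1% to 50.7% of all entries fell in genes. The deposited RPKM values equal the count over the gene length and an effective library size, so they are not independent of the counts.

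Counts were filtered with filterByExpr, scaled by TMM and fitted with edgeR 4.0.16 (quasi-likelihood, robust) in R 4.3.3 over 13881 genes, with group as the only term; a call is a Benjamini-Hochberg adjusted p under 0.05. The fit was tested on simulated data. Alternatives were other scalings, filters, tests (DESeq2 1.42.0, limma 3.58.1, edgeR's exact test), a replicate block and each replicate left out. Called genes with a mean of at least 1 RPKM in either group are given sample by sample, called genes below that and genes whose call turned on 1 sample were added after their values were seen, and from each pathway list the 4 called genes with the smallest adjusted p and the 2 others with the highest mean CPM are given, except 1 gene that is not reported here; some further called genes are named. The members, the pathway lists and the marker lists were chosen with earlier results of these data known. Overlapping genes come from GENCODE M21, which is of another build, so no coordinates of counted genes are given.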

Additional observations from a re-analysis of the deposited data

How the results depend on the processing

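Under other scalings, filters and tests 7 transporter genes were called higher, and 6 with the replicate block; leaving out 1 replicate at a time gave 5 to 7, of which Slc7a11 was 1 without sham replicate 2. The count called lower was 4, or 5 with upper-quartile scaling or library size alone, and 4 to 5 with 1 replicate left out. Same-numbered IRI and sham samples deviated together with correlations of 0.182, 0.0951 and 0.178, and each sample correlated best with its own number, which is a hint from the data and not the design. With the replicate block the call of Slc38a1 was lost (0.90; adjusted p = 0.0661), and Ppp1r15a, Lamtor2, Gclc and Bsg gained one (adjusted p = 0.0171, 0.0469, 0.0496 and 0.0431). The median log2 fold change of the tested genes was 0.00087 under upper-quartile scaling, -0.080 by library size alone and -0.0080 to 0.18 with 1 replicate left out. The summed RPKM difference was 97.4 with TMM effective library sizes and 13.4 without Slc3a2. The Slc7a11 ratio was 2.48 to 23.6 with 1 replicate left out. Some genes with no call changed sign, and the cause was not tested. Slc7a9 was at -0.0049 with relative log expression scaling, -0.12 with upper-quartile scaling, -0.18 with library size alone, -0.032 with no filter, -0.0060 with DESeq2, -0.20 with limma-voom, -0.12 with the replicate block and -0.54 to 0.39 with 1 replicate left out. Slc43a3 was at -0.080 with library size alone and -0.12 to 0.27 with 1 replicate left out. Rragd was at -0.00071 with relative log expression scaling, -0.00069 with DESeq2, -0.12 under upper-quartile scaling, -0.20 by library size alone, -0.033 with no filter and -0.098 to 0.080 with 1 replicate left out. By library size alone Nedd4l was at -0.0094 and Sesn2 at -0.075. With 1 replicate left out Slc1a3 ranged over -0.35 to 0.036, Slc36a4 over -0.0080 to 0.38, Slc6a12 over -0.58 to 0.12, Sesn2 over -0.12 to 0.31 and Slc15a2 over -0.62 to 0.27. Of the called pathway genes, Slc6a6 and Slc6a9 lost their call under upper-quartile scaling (adjusted p = 0.0607 and 0.0541) and by library size alone (adjusted p = 0.123 and 0.101). Depth limits the genes under about 20 reads a sample, Slc7a11 among them.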

Other observations

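Amino acid and peptide transporters of other families included few called genes. Of 14 tested, 2 were called higher and 2 lower in IRI (28.6%, against 45.5% of all genes). Slc6a6, the taurine transporter used in medullary osmolyte uptake, averaged 17.4 ± 1.08 RPKM in IRI and 13.0 ± 2.46 RPKM in sham (SD, n = 3 each; log2 fold change 0.46 ± 0.13 SE, adjusted p = 0.0206 by edgeR). Slc6a9, a glycine transporter, averaged 1.82 ± 0.408 RPKM in IRI and 1.08 ± 0.305 RPKM in sham (0.78 ± 0.25 SE; adjusted p = 0.0309 by edgeR). Both calls were lost under upper-quartile scaling, by library size alone and when single replicates of either group were left out. Ctns, which exports cystine from lysosomes, was called lower at 2.00 ± 0.289 RPKM in IRI and 4.61 ± 0.70 RPKM in sham (-1.17 ± 0.17 SE; adjusted p = 0.000613 by edgeR). Slc15a4, a lysosomal histidine and peptide transporter, was called lower at 4.78 ± 0.536 RPKM in IRI and 7.31 ± 0.372 RPKM in sham (-0.58 ± 0.13 SE; adjusted p = 0.00551 by edgeR). Slc6a12, the betaine transporter of the medulla, averaged 6.71 ± 1.97 RPKM in IRI and 8.55 ± 4.00 RPKM in sham and had no call (adjusted p = 0.494 by edgeR). Slc15a2, a peptide transporter, averaged 2.08 ± 1.24 RPKM in IRI and 2.33 ± 0.363 RPKM in sham and had no call (adjusted p = 0.851 by edgeR). Bsg, the partner of monocarboxylate transporters, averaged 838 ± 99.4 RPKM in IRI and 1028 ± 110 RPKM in sham and had no call (adjusted p = 0.156 by edgeR), though it was called lower under upper-quartile scaling and by library size alone.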
